A study of Mus musculus with 4 samples.

Results

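Genes for potassium, sodium and calcium channels were examined for nearby binding of Sp9, a zinc finger transcription factor of the developing ganglionic eminences and of young striatal neurons. The channel genes were chosen by symbol alone: 138 of 21900 mouse protein-coding genes have a symbol that starts with Kcn, Cacn, Scn and a digit, or Hcn and a digit. The submitters had mapped Sp9 binding by ChIP-seq, the sequencing of DNA recovered with an antibody, here a rabbit antibody to Sp9. The tissue was the basal ganglia of CD1 mice, all wild-type, taken on embryonic day 13.5 (E13.5) or 16.5 (E16.5), and each stage has 1 ChIP library and 1 input library without antibody. The labels do not say how many embryos went into a library. The peak lists give, for each gene, the distance of every assigned peak from the gene's transcription start site (TSS) on the mm9 build, and neither height nor read depth. With 1 library per stage nothing below has a replicate check, and no difference between stages was tested. A gene missing from a list has no peak past the authors' threshold, or was not in their gene set under a matched name.

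Most voltage-gated channels open when the membrane depolarises. Among these, sodium channels carry the rising phase of the action potential and potassium channels end it. Calcium channels couple it to transmitter release and gene expression. In the striatum, medium spiny neurons are known for a very negative resting potential held by inwardly rectifying potassium channels and for A-type potassium currents that delay firing. Sp9 belongs to the SP/KLF family, whose members are known to bind GC-rich boxes often found at promoters.

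As a check of the tissue by peaks alone, 9 of 10 ganglionic eminence genes (among them Dlx1, Gad1 and Meis2) had a peak within 50 kb in the E13.5 list, and 10 of 10 in the E16.5 list. Of 5 genes each for endothelium, microglia and blood, and liver and muscle, 1, 1 and 0 had one at E13.5 (Cdh5 and Ptprc) and none at E16.5, beside 10.8% and 15.1% of all protein-coding genes. At any assigned distance 3 of the 5 endothelium genes and 1 of the 5 microglia and blood genes had a peak at each stage. These lists hold no expression values, so the labelled tissue could not be checked further.

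Promoter peaks, within 1 kb of the TSS, were found at 5 of 138 channel genes (3.62%), beside 10.9% of all protein-coding genes. None of the 5 had one at both stages, beside 3.40% of all genes. The E13.5 list held 1 (0.725%, 95% Wilson interval 0.128 to 3.99), beside 4.93% of all genes, or 1.53% with a promoter peak at E13.5 only. The E16.5 list held 4 (2.90%, 1.13 to 7.22), beside 9.42%, or 6.02% at E16.5 only. The background lay above the interval at each stage. In the E16.5 list Hcn3, for a pacemaker channel opened by hyperpolarisation, had a peak 40 bp downstream of the TSS, also assigned to the neighbouring kinase gene Clk2, 4639 bp upstream of that TSS. Cacna2d1, for an alpha2delta subunit that brings calcium channels to the membrane, had one 45 bp downstream. Cacnb3, for a cytoplasmic beta subunit of the same channels, had one 113 bp downstream, and Kcnk10, for a background potassium channel of the TREK group, had one 552 bp upstream. The nearest peak to any channel gene outside this window was that of Cacna1g, at 5212 bp in the E13.5 list and 5355 bp in the E16.5 list.

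The bases just upstream of the start are shown for the promoters with a peak that have an entry in the RefSeq table (build GRCm38.p6, not the mm9 build of the lists), namely Cacna2d1, Cacnb3 and Kcnk10, so that the base composition beside these starts can be seen. By the listed distances the peak positions themselves lie outside the bases shown. Capitals mark GGGCGG, the GC box of the SP/KLF family, on either strand. Each stretch is 250 bases, 5′ to 3′ on the gene's strand. Cacna2d1 lies at chr5:15934441-15934690 (+ strand). The table gives 2 starts each for Cacnb3, at chr15:98632078-98632327 (+ strand) and chr15:98634517-98634766 (+ strand), and for Kcnk10, at chr12:98578214-98578463 (- strand) and chr12:98575128-98575377 (- strand), and the peak lists do not say which start was used.
Cacna2d1: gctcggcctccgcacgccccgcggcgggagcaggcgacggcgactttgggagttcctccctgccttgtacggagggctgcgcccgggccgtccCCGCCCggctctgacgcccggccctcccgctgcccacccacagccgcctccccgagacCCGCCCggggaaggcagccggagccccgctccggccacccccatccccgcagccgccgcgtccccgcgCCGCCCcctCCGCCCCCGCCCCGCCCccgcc
Cacnb3, first start: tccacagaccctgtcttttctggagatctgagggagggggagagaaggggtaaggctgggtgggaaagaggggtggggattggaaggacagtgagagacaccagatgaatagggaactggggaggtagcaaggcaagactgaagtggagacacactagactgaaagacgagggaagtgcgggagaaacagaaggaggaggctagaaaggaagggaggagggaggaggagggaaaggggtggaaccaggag
Cacnb3, second start: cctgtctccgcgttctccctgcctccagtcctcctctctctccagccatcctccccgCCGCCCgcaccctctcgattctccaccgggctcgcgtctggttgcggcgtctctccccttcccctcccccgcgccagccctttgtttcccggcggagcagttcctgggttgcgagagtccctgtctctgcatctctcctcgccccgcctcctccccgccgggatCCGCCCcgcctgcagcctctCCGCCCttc
Kcnk10, first start: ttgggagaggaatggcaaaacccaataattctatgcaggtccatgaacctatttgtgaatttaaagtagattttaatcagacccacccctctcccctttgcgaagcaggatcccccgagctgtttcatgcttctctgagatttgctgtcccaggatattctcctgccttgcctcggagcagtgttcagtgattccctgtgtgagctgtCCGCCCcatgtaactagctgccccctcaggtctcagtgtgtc
Kcnk10, second start: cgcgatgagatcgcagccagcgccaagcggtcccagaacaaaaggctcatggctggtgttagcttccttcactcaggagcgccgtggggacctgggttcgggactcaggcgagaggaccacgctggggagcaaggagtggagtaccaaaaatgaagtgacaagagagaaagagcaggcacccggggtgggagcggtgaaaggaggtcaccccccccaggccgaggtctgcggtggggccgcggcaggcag

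The Cacna2d1 stretch was 82.4% G and C, with 36 CG dinucleotides and 6 GGGCGG matches. Over 21263 promoter stretches of protein-coding genes of the same length, the median was 55.6% with 10 CG dinucleotides, and 42.6% held at least 1 GGGCGG. The Cacnb3 starts differed: the first was 56.0% G and C with 2 CG dinucleotides and 0 matches, and the second 70.4% with 23 and 3. Of the Kcnk10 starts, the first was 50% with 4 CG dinucleotides and 1 match, and the second 64.0% with 16 and 0. Other motifs were searched on both strands, and their matches may overlap. CACCC was present in every stretch shown and in 54.2% of all promoters. CCAAT was in the first Cacnb3 and first Kcnk10 stretches and in 35.4% of all, and TAATTA was in none shown and in 4.31% of all. A match describes letters in this window and not a bound site. Only 101 of the 138 channel genes (73.2%) have an entry, so a motif count over all of them would be void and was not made.

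Counted at any distance, 54 of 138 channel genes (39.1%) had an assigned peak at 1 or both stages, beside 28.0% of all protein-coding genes. At E13.5 there were 50 (36.2%, 95% Wilson interval 28.7 to 44.5), beside 20.7% of all genes. At E16.5 there were 39 (28.3%, 21.4 to 36.3), beside 23.6%. The E13.5 interval lay above its background and the E16.5 interval included it. Channel genes with a peak were fewer in the later list, whereas protein-coding genes with a peak numbered 4537 in the earlier list and 5163 in the later one. Peaks at both stages were assigned to 35 channel genes (25.4%, beside 16.3%), at E13.5 only to 15 (10.9%, beside 4.39%) and at E16.5 only to 4 (2.90%, beside 7.25%). The remaining 84 were in neither list. Intervals cover counting error over genes only, and neighbouring genes that share a peak are not independent.

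Within 50 kb of the TSS the interval of each stage included the background. In this window 18 of 138 had a peak in the E13.5 list (13%, 8.41 to 19.7, beside 10.8%) and 14 in the E16.5 list (10.1%, 6.14 to 16.3, beside 15.1%). Those with one at both stages were 10, beside 7.79% of all genes, with 8 at E13.5 only, beside 3.02%, and 4 at E16.5 only, beside 7.26%. Over both lists this made 22 (15.9%, beside 18.1%). The genes next to this limit were Kcna4, at 49967 bp at E13.5, and Kcnq3, at 46941 bp at E16.5, with Kcne4 just outside at 55780 and 55753 bp. The direction at E13.5 depended on the distance allowed. Over 5 kb before and 1 kb after the TSS, the span that every gene has in the authors' assignment, the share of channel genes minus that of all genes was -4.79 percentage points, with 1 channel gene counted. Within 50 kb it was 2.23.

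**Figure D1:**
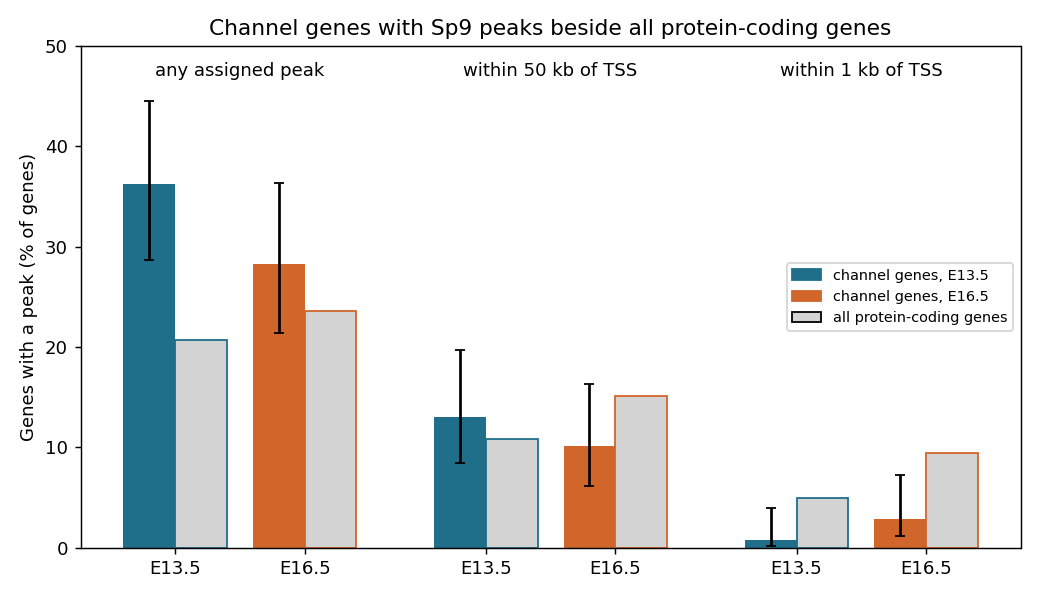
Share of genes with an Sp9 peak, in percent of genes, for the 138 channel genes (coloured bars with 95% Wilson intervals) and all 21900 protein-coding genes (grey bars), at any assigned distance, within 50 kb and within 1 kb of the TSS. The coloured bar is the higher of the pair at any distance (36.2% beside 20.7% at E13.5) and the lower within 1 kb (2.90% beside 9.42% at E16.5).

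The peaks of channel genes lay far from their start sites. The median distance was 199866 bp in the E13.5 list and 186414 bp in the E16.5 list, beside 128746 and 77159 bp over all protein-coding genes with a peak. Of 103 assignments of a peak to a channel gene at E13.5, 62 (60.2%) lay 50 to 500 kb away and 23 (22.3%) farther, beside 55.0% and 14.4% for all genes. Of 80 at E16.5, 49 (61.2%) and 13 (16.2%) did, beside 46.5% and 10.6%. More lay downstream of the TSS than upstream, 62 against 41 at E13.5 and 50 against 30 at E16.5. Upstream assignments made up 39.8% and 37.5%, beside 46.4% and 48.8% for all genes. In the authors' assignment a distant peak goes to the genes on either side of it, and a gene whose neighbours are far away can take peaks from a longer stretch. The part of that length in these counts was not tested. Of the 100 distinct peaks at E13.5, 86 were also assigned to another gene (86.0%, beside 71.0% of the peaks of all genes), as were 71 of 78 at E16.5 (91.0%, beside 62.2%). The channel gene was the nearest listed TSS in 61 of 103 assignments (59.2%, beside 58.7%) and 47 of 80 (58.8%, beside 62.2%). A nearer gene is named below for only some of the other peaks. With each peak given to its nearest TSS alone, 37 channel genes in the E13.5 list and 31 in the E16.5 list had a peak. Their share minus that of all genes under the same rule was 12.1 and 5.03 percentage points.

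**Figure D2:**
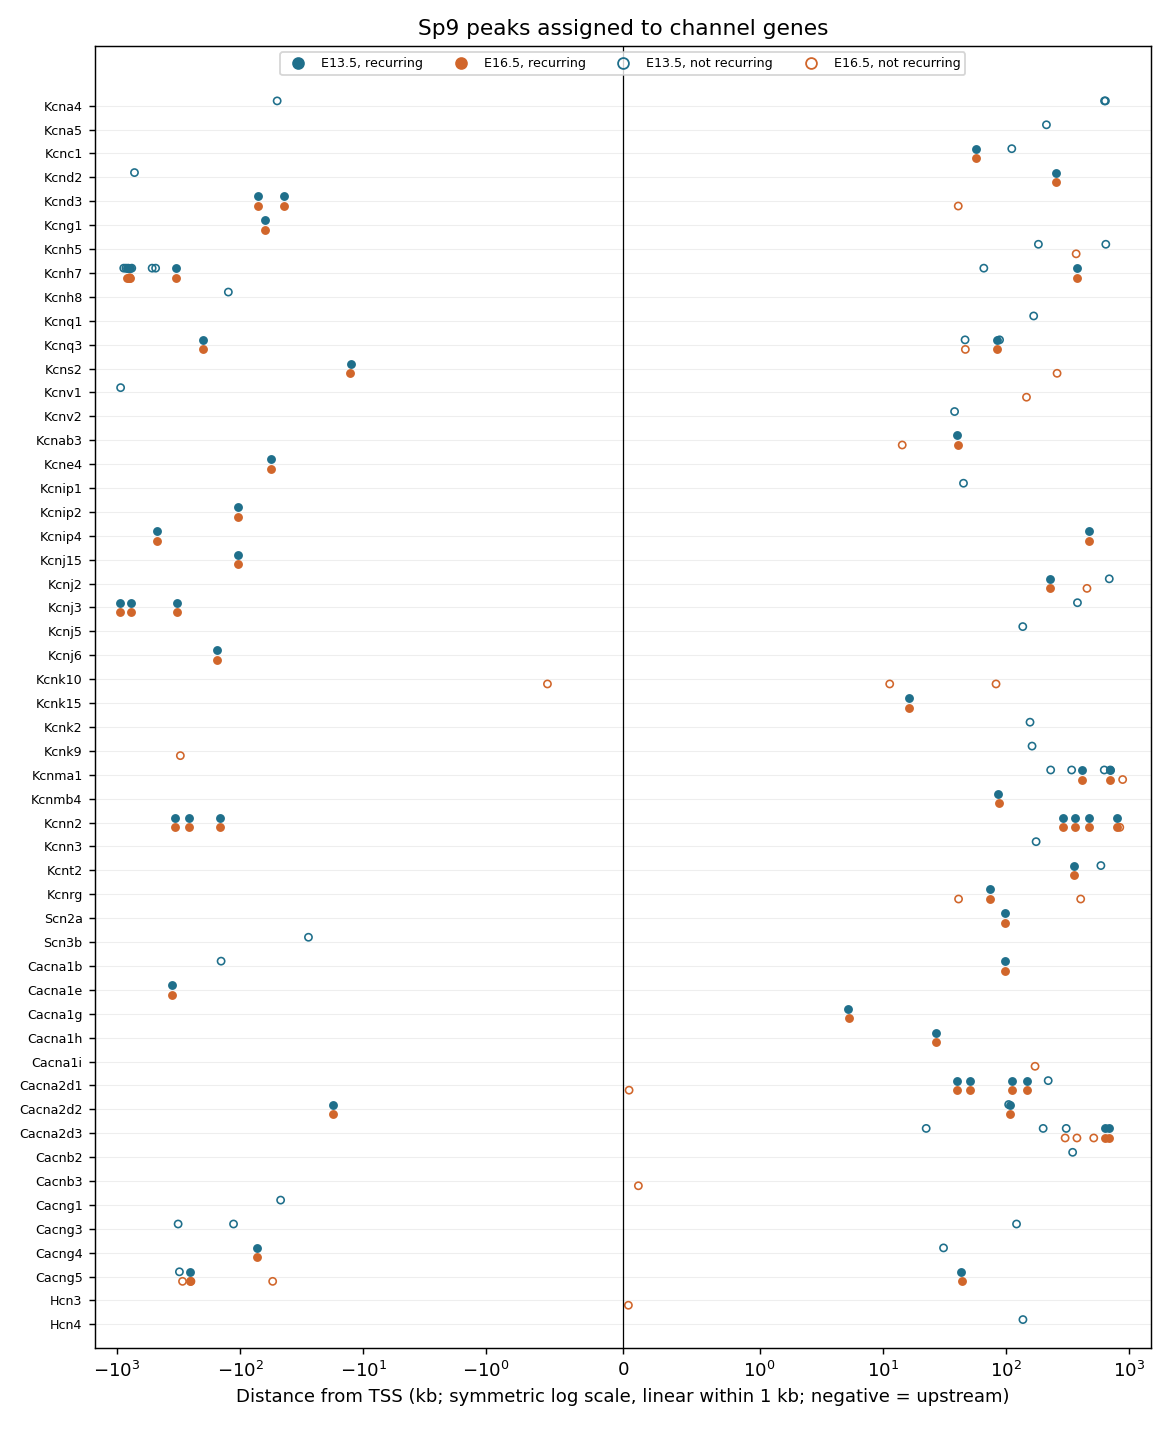
Sp9 peaks assigned to 52 of the 54 channel genes with a peak, by distance from the TSS in kb on a symmetric log axis (negative is upstream). Blue points are E13.5 and orange points E16.5, filled where the other list has a peak of that gene within 200 bp; of the genes plotted, Hcn3, Cacna2d1, Cacnb3 and Kcnk10 have points within 1 kb of 0.

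Peaks were called recurring when both lists placed one for the same gene at TSS distances no more than 200 bp apart. Of the channel genes' 100 peaks at E13.5, 52 recurred (52.0%, 42.3 to 61.5), beside 58.0% of the peaks of all protein-coding genes. Of the 78 at E16.5, 52 recurred (66.7%, 55.6 to 76.1), beside 55.8%. Both intervals included the background. Recurring pairs differed by a median of 44.5 bp and at most 189 bp. None of the 5 promoter peaks recurred, whereas over all protein-coding genes 609 of 970 promoter peaks in the E13.5 list and 612 of 1859 in the E16.5 list did. Farther out, 52 of 99 at E13.5 (52.5%, beside 57.0%) and 52 of 74 at E16.5 (70.3%, beside 66.4%) did. Of the 35 genes with a peak at both stages, 32 shared at least 1 position, and Kcnh5, Kcnk9 and Kcnv1 shared none. The peaks that did not recur numbered 48 at E13.5 and 26 at E16.5. With 52 recurring in each list, this restates the totals of 100 and 78. Over all protein-coding genes the order was the other way, with 2381 and 2601. Which library was more deeply sequenced is not known, and the part of depth in this was not tested.

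The counts by subfamily that follow are small. They are to be read against the shares of all protein-coding genes, 20.7% in the E13.5 list, 23.6% in the later one and 16.3% in both. Among the pore subunits of voltage-gated potassium channels, 15 of 40 genes had a peak in the E13.5 list and 9 in the E16.5 list, all 9 being among the 15. Kcnh7, for a channel of the ether-a-go-go-related group, had 12 peaks in the E13.5 list, the most of any channel gene there, and 6 in the E16.5 list. Of 4537 protein-coding genes with a peak at E13.5, 34 had 12 or more. The E13.5 peaks lay 881654, 846457, 827708, 810554, 798294, 779234, 759003, 518311, 485634 and 334499 bp upstream and 66314 and 376651 bp downstream. Those at 827708, 798294, 779234 and 334499 bp upstream and 376651 bp downstream recurred, and the E16.5 list added one 787665 bp upstream. Most of this array lay nearer to the next gene, the microtubule-severing protein gene Fign: 10 of the 12 E13.5 peaks were assigned to it too, and 9 were nearer to its TSS, from 32080 to 428100 bp away. The E13.5 peak 376651 bp downstream was nearer to Gca on the other side, at 143342 bp.

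Kcnd3 and Kcnd2 encode pores of the A-type current. Kcnd3 had peaks 71351 and 43893 bp upstream in the E13.5 list, which recurred at 71323 and 43878 bp, and at E16.5 a further one 41094 bp downstream. Kcnd2 had a peak 256839 bp downstream that recurred at 256768 bp, and at E13.5 one 721306 bp upstream. Kcna4, a Shaker-type A-current gene, had 3 peaks, 49967 bp upstream and 634660 and 645383 bp downstream, all in the E13.5 list alone. Kcna5, a Shaker-type delayed rectifier gene, had one 214023 bp downstream in that list alone, nearer to Ntf3, at 154788 bp. The delayed rectifier gene Kcnc1, known from fast-spiking interneurons, had peaks 56841 and 111879 bp downstream at E13.5, of which the nearer recurred at 56915 bp.

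Kcnq3 encodes a subunit of the M-current, which restrains repeated firing. Its peaks lay 199866 bp upstream and 46688, 85072 and 89023 bp downstream at E13.5, and 199896 bp upstream and 46941 and 85062 bp downstream at E16.5. The pair near 47 kb differed by 253 bp and did not count as recurring. The upstream peak was nearer to Lrrc6, 14820 bp from its TSS at E13.5. Of the modulatory subunits that form no channel alone, Kcns2 had a peak 12620 bp upstream in the E13.5 list, which recurred at 12809 bp. Another Kcns2 peak lay 261137 bp downstream at E16.5 alone, nearer to Stk3, at 57314 bp. Kcng1 had one 62722 bp upstream that recurred at 62669 bp. Kcnv2, known from photoreceptors, had one 38370 bp downstream at E13.5 alone. Kcnv1, a silent subunit of brain, had one 934992 bp upstream at E13.5 and another 147343 bp downstream at E16.5. Among the remaining pores, the ether-a-go-go gene Kcnh5 had peaks 184141 and 649933 bp downstream at E13.5 and 373189 bp downstream at E16.5. Its relative Kcnh8 had one 124539 bp upstream and the heart channel gene Kcnq1 one 168561 bp downstream, each at E13.5 alone. The Shaker genes Kcna1 and Kcna2, with Kcnc2, were in neither list.

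Of 12 auxiliary subunit genes of potassium channels, 5 had a peak in the E13.5 list and 4 in the E16.5 list. Kcnip1, Kcnip2 and Kcnip4 encode calcium-binding partners of the A-type pores. Kcnip4 had peaks 471829 bp upstream and 476806 bp downstream that recurred at 471815 and 476776 bp. The upstream peak was nearer to Adgra3, at 62263 bp at E13.5. Kcnip2, known for its high level in striatum, had one 104587 bp upstream that recurred at 104542 bp, and Kcnip1 had one 45335 bp downstream at E13.5 alone. The Kcnip2 peak was nearer to Armh3, at 77840 bp at E13.5. The beta subunit gene Kcnab3 had a peak 40523 bp downstream that recurred at 40612 bp and lay within 2625 bp of the chromatin remodeller gene Chd3 at E13.5. A second Kcnab3 peak, 14405 bp downstream, was in the E16.5 list alone. Kcne4, for a small modulator, had one 55780 bp upstream that recurred at 55753 bp.

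Inward rectifiers had peaks at 5 of 15 genes in the E13.5 list and 4 in the E16.5 list, beside 20.7% and 23.6% of all genes. None was within 50 kb, beside 10.8% and 15.1%, a gap that 15 genes are too few to read. Kcnj2, a strong rectifier of medium spiny neurons, had a peak 230416 bp downstream that recurred at 230515 bp. Another lay 693438 bp downstream at E13.5 and another 456874 bp downstream at E16.5. Kcnj3 and Kcnj6 encode channels opened by G proteins. Kcnj3 had peaks 949059, 771058 and 327931 bp upstream that recurred at 949033, 771011 and 327948 bp, and one 382437 bp downstream at E13.5 alone. The farther 2 were nearer to the glycosyltransferase gene Galnt13, at 50524 and 228525 bp at E13.5. Kcnj6 and its neighbour Kcnj15 shared a single peak, 155413 and 104449 bp upstream of the respective TSS, which recurred. Kcnj5, a partner of Kcnj3 in heart, had one 137439 bp downstream at E13.5 alone, nearer to Arhgap32, at 90662 bp. Kcnj4, the other strong rectifier of these neurons in the list, was absent from both stages.

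Background channels of the tandem-pore (K2P) family had peaks at 3 of 14 genes at each stage, close to the 20.7% and 23.6% of all genes. Kcnk10 was in the E16.5 list alone, where its promoter peak was joined by peaks 11398 and 83338 bp downstream. Kcnk2, a mechanically gated relative of Kcnk10, was in the E13.5 list alone, with a peak 157400 bp downstream. Kcnk15 had a peak 16265 bp downstream that recurred at 16295 bp. Kcnk9, an acid-sensitive channel gene, had one 163495 bp downstream at E13.5 and another 305759 bp upstream at E16.5. This E16.5 peak was nearer to Trappc9, at 209166 bp.

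Channels gated by calcium or sodium ions had peaks at 5 of 12 genes in the E13.5 list and 4 in the E16.5 list. None was within 50 kb, beside 10.8% and 15.1% of all genes, a gap that 12 genes are too few to read. Kcnn2, for a small-conductance channel of the afterhyperpolarisation, had 7 peaks at E13.5, and all 7 recurred. They lay 337367, 260139 and 145524 bp upstream and 289283, 367148, 474860 and 798202 bp downstream at E13.5, and 337382, 260036 and 145510 bp upstream and 289378, 367203, 474887 and 798219 bp downstream at E16.5. The E16.5 list held an eighth, 844002 bp downstream. Of the 7 E13.5 peaks, 2 were nearer to Ythdc2 on one side and 2 to 1700018A14Rik on the other.

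Kcnma1, the pore of the large-conductance calcium-activated channel, had 6 peaks in the E13.5 list and 3 in the E16.5 list, all downstream. At E13.5 they lay 231686, 342985, 417237, 631437, 707237 and 708317 bp from the TSS, and those at 417237 and 708317 bp recurred at 417212 and 708260 bp. The third E16.5 peak lay at 890826 bp. None of the 6 E13.5 peaks was assigned to another gene. Its beta subunit gene Kcnmb4 had a peak 87200 bp downstream that recurred at 87315 bp, nearer to Ptprb, at 85304 bp at E13.5. The sodium-activated channel gene Kcnt2 had one 360961 bp downstream that recurred at 360957 bp and at E13.5 one 592765 bp downstream. Kcnn3 had one 176386 bp downstream at E13.5 alone, nearer to Adar, at 34198 bp. Kcnrg, for a soluble regulator of potassium channels, had a peak 75012 bp downstream that recurred at 74834 bp, and at E16.5 peaks 41335 and 406266 bp downstream as well.

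Among sodium channel genes, 1 of 10 pore genes and 1 of 4 beta subunit genes had a peak at either stage, beside 28.0% of all protein-coding genes. Of the pores only Scn2a, the main sodium channel of early axons, had one, 98704 bp downstream, which recurred at 98767 bp. Scn1a, Scn3a and Scn8a, the other sodium pores of the brain, were in neither list. Of 4 beta subunit genes, Scn3b had a peak 27817 bp upstream at E13.5 alone, and Scn2b and Scn4b, the latter known for its high level in striatum, had none.

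Of 10 calcium channel pore genes, 4 had a peak at both stages and Cacna1i at E16.5 alone. The nearest were at genes of the low-threshold (T-type) current: Cacna1g had a peak 5212 bp downstream that recurred at 5355 bp, and Cacna1h one 27106 bp downstream that recurred at 27193 bp. The third T-type gene, Cacna1i, had one 172933 bp downstream, nearer to Enthd1, at 100299 bp. Cacna1b, the N-type pore of presynaptic terminals, had one 98148 bp downstream that recurred at 98108 bp, and at E13.5 one 142637 bp upstream. That upstream peak was 13925 bp from the TSS of Ehmt1. The R-type gene Cacna1e had one 357441 bp upstream that recurred at 357529 bp and lay 16276 bp from the TSS of Ier5 at E13.5. The P/Q-type gene Cacna1a and the L-type genes Cacna1c and Cacna1d were in neither list.

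Of 4 alpha2delta genes 3 had peaks at each stage, with 13 assignments in the E13.5 list and 12 in the E16.5 list. Cacna2d1 and Cacna2d2 encode the binding proteins of gabapentin. Cacna2d1 had peaks 39993, 51239, 113106, 147650 and 221178 bp downstream at E13.5, and the first 4 recurred at 39932, 51199, 113138 and 147705 bp. Its promoter peak was the fifth in the E16.5 list. All 5 of its E13.5 peaks were nearer to its own TSS than to that of Hgf, the next gene. Cacna2d2 had a peak 17641 bp upstream that recurred at 17685 bp and one 108694 bp downstream that recurred at 108674 bp, the latter 25371 bp from the TSS of Tmem115 at E13.5. Another lay 105563 bp downstream at E13.5. Cacna2d3 had 5 peaks at each stage, of which those 636008 and 691402 bp downstream recurred, at 635974 and 691402 bp. The other E13.5 peaks lay 22553, 201270 and 309861 bp downstream, and the other E16.5 peaks 303655, 378692 and 518692 bp downstream. The recurring pair lay nearer to Lrtm1, a gene 67648 and 12254 bp from them at E13.5. The E16.5 peaks at 378692 and 518692 bp were also nearer to Lrtm1, at 324964 and 184964 bp.

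Among the calcium beta subunit genes, Cacnb2 had a peak 349449 bp downstream at E13.5 alone and Cacnb3 its promoter peak at E16.5 alone. The Cacnb2 peak was nearer to Nsun6, at 95530 bp. Cacnb4 was in neither list. The gamma subunits include the TARP proteins that carry AMPA-type glutamate receptors to synapses, and 4 of 8 genes had a peak in the E13.5 list and 2 in the E16.5 list. Cacng5, Cacng4 and Cacng1 share peaks: one lay 43662 bp downstream of Cacng5 and 73143 bp upstream of Cacng4 and recurred, and another lay 31207 bp downstream of Cacng4 and 46828 bp upstream of the muscle gene Cacng1 at E13.5 alone. Cacng5 had further peaks 311132 and 254555 bp upstream at E13.5 and 293583, 254647, 250915 and 54342 bp upstream at E16.5. The pair at 254555 and 254647 bp counted as recurring, and all of these but the one at 54342 bp were closer to Prkca. Cacng3 had peaks 318770 and 113016 bp upstream and 122286 bp downstream at E13.5 alone. The farthest of these was nearer to Prkcb, at 63677 bp. Cacng2, which encodes stargazin, was in neither list.

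Among the Hcn pacemaker genes, Hcn4, known from the heart, had a peak 137858 bp downstream at E13.5 alone, and Hcn3 its promoter peak at E16.5 alone. The Hcn4 peak was nearer to Neo1, at 75071 bp. Hcn2 was in neither list.

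**Figure D3:**
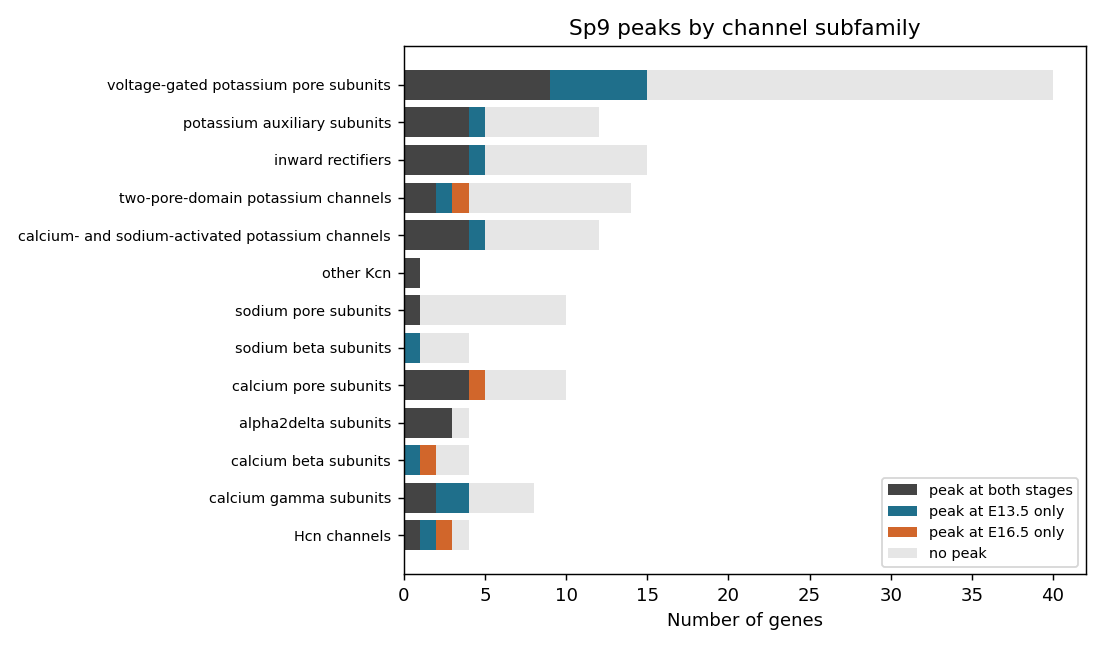
Number of channel genes in each of 13 subfamilies with an Sp9 peak at both stages (dark grey), at E13.5 only (blue), at E16.5 only (orange) or at neither (light grey). In the sodium pore subfamily 9 of 10 genes have no peak, and in the alpha2delta subfamily 3 of 4 have one at both stages.

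**Figure D4:**
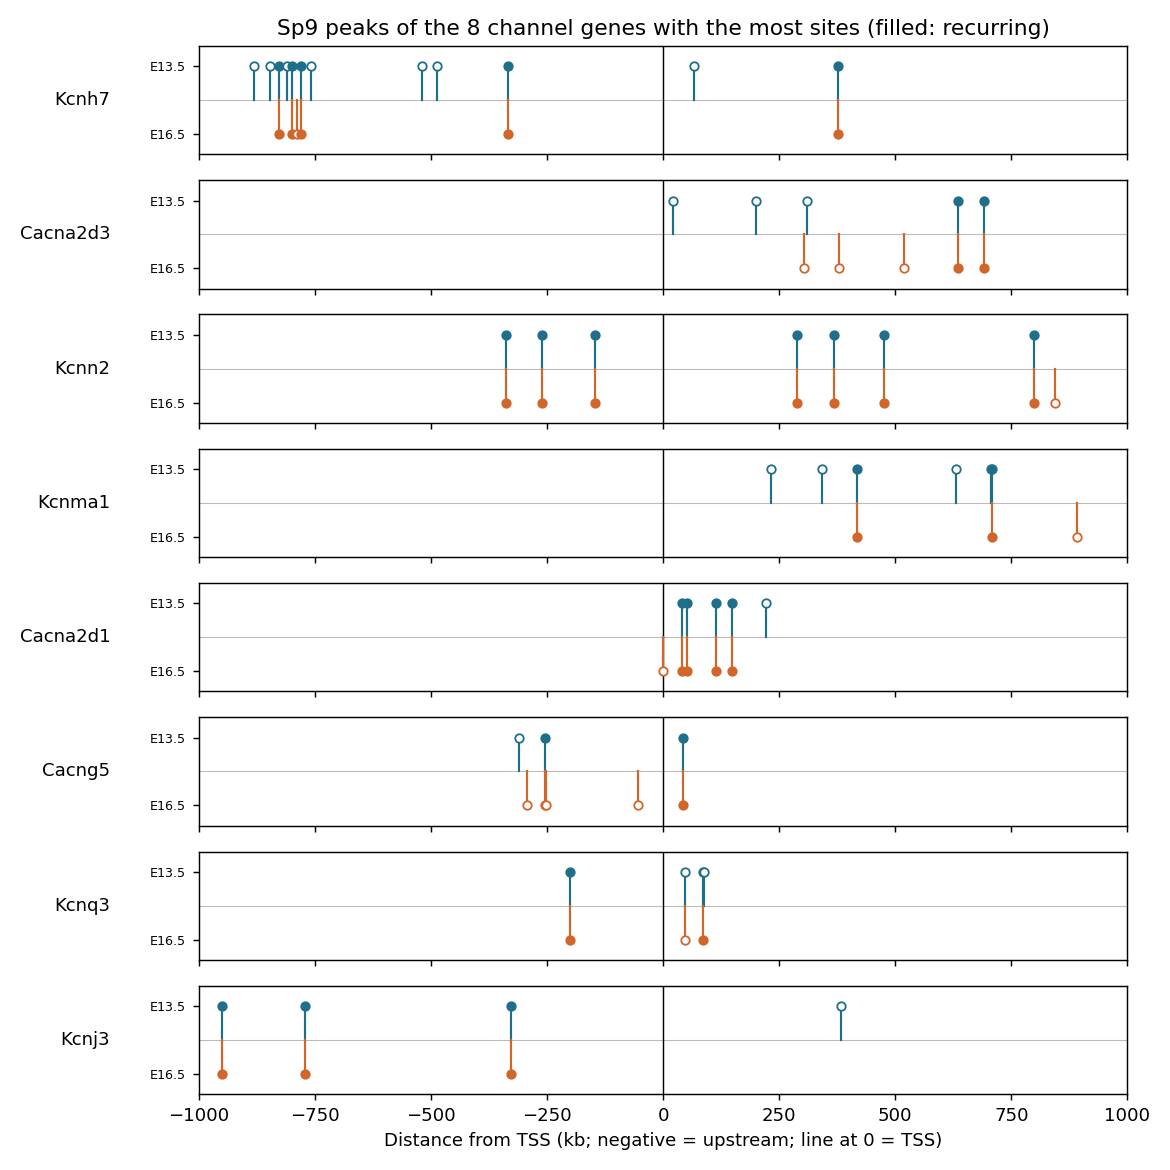
Sp9 peaks of the 8 channel genes with the most positions over both stages, by distance from the TSS in kb (negative is upstream, the vertical line is the TSS), with E13.5 above and E16.5 below each axis. Filled circles recur in the other list; all 7 E13.5 positions of Kcnn2 are filled, and 5 of 12 are for Kcnh7.

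By where the channels are known to act, 29 of 50 listed channel genes of striatal projection neurons and forebrain interneurons had a peak in the E13.5 list and 23 in the E16.5 list, within 50 kb 12 and 7. Of 24 listed for muscle, heart, kidney, testis, retina or sensory neurons, 5 had one in the E13.5 list and 1 in the E16.5 list, within 50 kb 2 (Cacng1 and Kcnv2) and 0. Over all protein-coding genes the shares were 20.7% and 23.6% at any distance, and 10.8% and 15.1% within 50 kb. These lists were chosen with earlier results of these data known, so the counts are no independent support, and their difference was not tested.

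Partner genes were read in the same way. Of 24 genes for anchoring and accessory proteins, 15 had a peak in the E13.5 list and 14 in the E16.5 list. The shares of all protein-coding genes were 20.7% and 23.6%. Within 50 kb 6 and 7 of them had one, beside 10.8% and 15.1% of all genes. Dlg4, the postsynaptic scaffold that clusters potassium channels and receptors, had a peak 4505 bp downstream that recurred at 4365 bp. Dlg2, its relative, had one 23045 bp downstream that recurred at 23049 bp. Cntnap1, a protein of the junctions beside the nodes of Ranvier, had one 4506 bp upstream that recurred at 4570 bp. Of 23 other cation channel genes, 7 had a peak at each stage, beside 20.7% and 23.6% of all genes. Within 50 kb 0 had one in the E13.5 list and 1 in the E16.5 list, at Trpc2, beside 10.8% and 15.1%.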

How the data were processed

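Sp9 ChIP-seq was done on basal ganglia of CD1 embryos, with 1 ChIP and 1 input library per stage. The build mm9 and the tools MACS2 2.1.0, BWA 0.6.2, bcl2fastq 1.8.4 and CASAVA 1.8.2 are named, without roles, in the submitters' processing notes. No source used here gives the peak threshold. The authors assigned peaks to genes whose regulatory domain covered them (5000 bp before and 1000 bp after the TSS, extended by up to 1000000 bp, plus curated domains), per the file headers. What the authors deposited is text in no measurement unit: peak numbers and signed TSS distances, without depth, height or coordinates.

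Listed names were matched to 21900 protein-coding genes by symbol or a unique synonym (table on GRCm38.p6, used for names only); Scn2a was listed as Scn2a1. Of 4826 and 5463 names, 128 and 133 matched nothing. Each numbered peak counted once. Genes of the table that the authors' gene set lacks could receive no peak; their number is not known. The counting was tested on simulated data. No test between stages or lists was made, and shares have 95% Wilson intervals. Analyses used Python 3.11.15, scipy 1.17.1 and matplotlib 3.10.9. The members, gene lists, windows and alternatives were chosen with earlier results of these data known. Genes were named by rule: promoter peaks, the 8 with most positions, up to 2 per subfamily by peaks within 50 kb, and the lists; the other genes with a peak were named after their values were seen. A few of the channel genes are counted but not reported by name here.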

Additional observations from a re-analysis of the deposited data

How the results depend on the processing

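At E13.5 the window set whether channel genes stood above or below all genes near the TSS. Within 10 kb, 2 channel genes held a peak in the E13.5 list and 5 in the E16.5 list, and from 5 kb upstream to 1 kb downstream 1 and 4. The difference in share from all protein-coding genes at E13.5 was 2.23 percentage points within 50 kb and -5.17 within 10 kb. From 5 kb upstream to 1 kb downstream it was -4.79. The narrower windows hold few channel genes, and the reason for this reversal was not tested. At E16.5 the difference was below 0 in each window, at -4.91 within 50 kb, -7.59 within 10 kb and -2.69 within 100 kb. From 5 kb upstream to 1 kb downstream it was -7.30. The other 42 of 48 recomputed values kept their direction and stayed within 1.5 times the count reported or within its interval, with nearest TSS only, 100 kb or 500 kb limits, a background without predicted genes, genes sharing a peak counted once, promoters within 500 or 2500 bp, matching within 100, 500 or 1000 bp, and split entries of a peak counted separately. Every value rests on 1 library per stage, so no library could be left out. No paired analysis was possible because each stage has 1 ChIP library.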

Other observations

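Among chloride channel, transporter and pump genes, which set the ion gradients that channels use, 9 of 22 had an assigned peak in the E13.5 list and 8 in the E16.5 list, beside 20.7% and 23.6% of all protein-coding genes. Within 1 kb of the TSS 1 and 4 had one, beside 4.93% and 9.42%. Atp2b1, a plasma membrane calcium pump, had a peak 701 bp upstream in the E13.5 list and one 557 bp upstream in the E16.5 list, which differ by less than the 200 bp allowed for recurrence. Atp2b2, its relative, had a peak 96040 bp downstream that recurred at 96030 bp and a promoter peak 119 bp downstream at E16.5 alone. Clcn4, an endosomal chloride exchanger, had a peak 21315 bp downstream that recurred at 21470 bp and a promoter peak 230 bp upstream at E16.5 alone.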
